A study of Mus musculus with 2 samples.

Results

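Sarcomeric myosin heavy chains are the motor proteins of striated muscle, and 7 genes of the family were followed here in the fetal mouse palate: Myh1, Myh2, Myh3, Myh4, Myh6, Myh7 and Myh8. Every probe set that the platform annotation gives to exactly 1 of these genes was taken, which gave 11 probe sets for 7 of the 18193 genes with such a probe set. A gene counted as measured where either array reached the 60th percentile of signals (658), and signals under the 40th percentile (287) were raised to that floor. Of the 7 genes, 4 were measured (Myh1, Myh3, Myh7 and Myh8), each above 658 on both arrays, Myh2 lay just below that level, and Myh4 and Myh6 were under the floor on both arrays. The comparison was between 1 array of palate whose genotype is given as Myf5-/-:MyoD-/- on BALB/c and 1 array of wild-type BALB/c palate, both at E18.5 (embryonic day). Myf5 and MyoD (gene symbol Myod1) are transcription factors that commit cells to skeletal muscle, and the series concerns the role of skeletal muscle in the developing palate. Neither the number of fetuses behind a sample nor the removed part of each gene is stated in the labels. With 1 array for each genotype there was no replicate, no test was possible, and every difference below is between these 2 arrays.

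A myosin heavy chain forms the head that binds actin and splits ATP and the rod that packs into the thick filament. Skeletal muscle exchanges one isoform for another as it matures: embryonic (Myh3) and perinatal (Myh8) chains predominate before birth, and the adult fast chains IIa (Myh2), IIx (Myh1) and IIb (Myh4) replace them in fast fibres after birth. Myh7 encodes the slow chain, which is shared by slow skeletal fibres and the ventricle of the heart, and Myh6 the alpha chain, which in the mouse is mainly a heart chain. In the palate, striated muscle forms the muscles of the soft palate, which arise from myoblasts that migrate into it.

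By RefSeq (assembly GRCm38.p6), Myh3, Myh2, Myh1, Myh4 and Myh8 follow each other in that order on chromosome 11, and Myh6 and Myh7 are neighbours on chromosome 14. The start regions of the 4 measured genes are shown because these genes were all lower on the labelled double-null array and because the fast and perinatal genes share stretches of sequence that the embryonic and slow genes lack. Each is RefSeq's window of 250 bases before to 50 after the gene start, read 5′ to 3′ on the coding strand. Capitals mark runs of at least 12 bases that 3 or more of the 7 genes hold on the same strand. Myh7 has 2 listed windows, of which the one with the start site further downstream was used. The windows are chr11:67199852-67200151 for Myh1, chr11:67276874-67277173 for Myh8 and chr11:67078050-67078349 for Myh3, all on the plus strand, and chr14:54994500-54994799 on the minus strand for Myh7.
Myh1: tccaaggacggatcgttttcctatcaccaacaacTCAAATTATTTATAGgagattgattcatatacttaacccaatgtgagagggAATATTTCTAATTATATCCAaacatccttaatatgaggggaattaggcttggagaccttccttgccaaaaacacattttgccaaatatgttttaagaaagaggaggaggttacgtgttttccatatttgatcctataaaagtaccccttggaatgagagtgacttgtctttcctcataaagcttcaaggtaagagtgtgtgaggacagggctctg
Myh8: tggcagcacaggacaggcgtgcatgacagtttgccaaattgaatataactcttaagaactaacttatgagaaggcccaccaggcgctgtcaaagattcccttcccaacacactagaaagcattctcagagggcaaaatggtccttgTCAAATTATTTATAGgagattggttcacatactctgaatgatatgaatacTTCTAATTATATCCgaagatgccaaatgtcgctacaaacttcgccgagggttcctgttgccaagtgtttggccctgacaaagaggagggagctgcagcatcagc
Myh3: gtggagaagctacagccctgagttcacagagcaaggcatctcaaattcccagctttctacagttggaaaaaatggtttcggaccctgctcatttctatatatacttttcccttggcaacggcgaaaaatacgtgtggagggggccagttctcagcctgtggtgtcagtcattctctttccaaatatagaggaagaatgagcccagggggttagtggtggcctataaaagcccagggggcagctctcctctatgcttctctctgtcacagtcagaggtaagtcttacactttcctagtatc
Myh7: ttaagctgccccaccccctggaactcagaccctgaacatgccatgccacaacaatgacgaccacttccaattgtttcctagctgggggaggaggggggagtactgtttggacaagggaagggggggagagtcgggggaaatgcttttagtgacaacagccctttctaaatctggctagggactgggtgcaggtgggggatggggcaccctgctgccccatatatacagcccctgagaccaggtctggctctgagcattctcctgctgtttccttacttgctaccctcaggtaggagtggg

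The run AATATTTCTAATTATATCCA stood in the windows of Myh1, Myh2 and Myh4, at positions 86, 121 and 88 counted from 1 at the window's 5′ end. Its inner 14 bases, TTCTAATTATATCC, were also in Myh8, at position 197. A second run, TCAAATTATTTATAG, was held by Myh1, Myh4 and Myh8 at positions 35, 64 and 147. Among all 32851 windows of the RefSeq table, searched on both strands, the 20-base run and the 15-base run were each in 3 windows (0.00913%) and the 14-base run in 4 (0.0122%), which are the windows of these genes. The windows of Myh3, Myh6 and Myh7 held none of the 3 runs. The best local alignment of the Myh1 and Myh2 windows covered 222 aligned bases with 76.6% identity, and that of Myh1 and Myh8 covered 77 with 84.4%, whereas that of Myh1 and Myh3 covered 35. The runs were found after the values of these genes were known, and a match is a description of sequence only.

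CANNTG, the E-box that Myf5, MyoD and the other myogenic regulators bind, reads as the same pattern on both strands and was in 5 of the 7 windows, against 72.3% of all windows. Myh4 had 3 matches, Myh7 and Myh8 had 2 each, Myh3 and Myh6 had 1 each, and Myh1 and Myh2 had none. CATTCC, the MCAT element bound by TEAD factors, was found on either strand in Myh1, Myh4 and Myh6, against 14.7% of all windows. TATAAA, searched on both strands, was in 6 of 7 windows against 13.6% of all windows. Myh7 was the exception, and the match in Myh8 lies inside the second shared run, on the opposite strand.

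The targeted genes differed little. Signals are MAS5 intensities after scaling, without a unit, and a log2 ratio is the log2 signal on the labelled double-null array minus that in wild type, so that a negative value means lower on the labelled double-null array. The brighter of the Myod1 probe sets gave 1664 on the labelled double-null array and 1937 in wild type, a log2 ratio of -0.22. The Myf5 probe set had 532 on the labelled double-null array and 517 in wild type, short of the measured level. Whether these probe sets lie in the removed parts of the genes is not stated, so they do not check the label. That array is called the labelled double-null array for this reason. To give a scale for these ratios, the spread between different probe sets of 1 gene was pooled over 4029 genes with 10187 measured probe sets, and came to an SD of 0.51. That SD does not cover differences between animals or dissections. A difference between the ratios of 2 genes would then have an SD of 0.73.

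All 4 measured myosin heavy chain genes were lower on the labelled double-null array, and 3 of them were at least 2-fold lower. Across the 11239 measured genes, 4.22% passed 2-fold in the lower direction and 43.5% had a log2 ratio below 0. In bulk tissue, fewer muscle cells and less myosin RNA in each muscle cell cannot be told apart. None of the 4 was at least 2-fold higher, against 3.55% of all measured genes. The median log2 ratio of the 4 genes was -1.11, or 2.16-fold lower, against 0.07 for all measured genes. Where the arrays were set to the same median signal over 14 reference genes (reference-gene signal scaling), no member reached 2-fold. All 4 log2 ratios stayed below 0 under the 4 other scalings, with an offset in place of the floor and with the mean of a gene's probe sets. The other floors and filters could not move them. Reference-gene signal scaling raised the median of all measured genes by 0.33 on the log2 scale. Of the 14 reference genes, 1 passed 2-fold. This was Eef2, with 21170 on the labelled double-null array and 60862 in wild type (2.87-fold lower). Taken relative to the median of all measured genes, the members' median was -1.18 as reported and -1.20 with quantile normalization, the 1 scaling tried that is not a constant factor for an array.

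Of the developmental chains, Myh3, the embryonic isoform, had a signal of 17258 on the labelled double-null array and 25850 in wild type (probe set 1427115_at). It kept 66.8% of the wild-type signal, a log2 ratio of -0.58 that is slightly larger in size than the SD between probe sets of 1 gene. Its probe set still lay at the 97.2th percentile of the labelled double-null array, against the 98.4th in wild type. Myh8, the perinatal isoform, had 10118 on the labelled double-null array and 21151 in wild type (1426650_at). This was 47.8% of the wild-type signal, a log2 ratio of -1.06 (2.09-fold lower), at the 95.0th percentile of the labelled double-null array against the 98.0th in wild type. A percentile places a probe set among all those of its array and is no measure of transcript abundance. Each of these isoforms was read by 1 probe set, so neither has a second reading within these arrays.

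The slow chain, Myh7, had a signal of 1142 on the labelled double-null array and 2680 in wild type (1448553_at). Its log2 ratio of -1.23 (2.35-fold lower) was the lowest of the 4 measured members, and 293 of the 11239 measured genes (2.61%) had a lower one. A further probe set, 1448554_s_at, is given to both Myh7 and Myh6 and was left out of the family by the rule. It had 214 on the labelled double-null array, which is under the floor of 287, and 778 in wild type, at least 2.71-fold lower. The shared probe set therefore ran in the same direction as that of Myh7 alone. Another shared probe set, 1448827_s_at, was under the floor on both arrays, with 8.91 on the labelled double-null array and 22.7 in wild type.

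Myh6, the alpha chain, was under the floor on both arrays by both of its probe sets. One had 258 on the labelled double-null array and 243 in wild type, and the other 26.2 on the labelled double-null array and 107 in wild type. Signals under the floor carry no ratio. Because Myh7 and Myh6 are also heart genes, 12 cardiac markers were listed, of which 11 had a probe set of 1 gene and none reached the measured level. Their signals ran from 34.6 to 468 on the labelled double-null array and from 30.6 to 492 in wild type, and 6 of the 11 were under the floor on both arrays. Summed over the 11 genes, the signal was 2673 on the labelled double-null array and 2671 in wild type. With every gene below the measured level, these sums cannot compare heart tissue between the arrays. Nppa, the atrial natriuretic peptide, and Myl7, the atrial light chain, were among those under the floor on both.

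Of the adult fast chains, Myh1 (IIx) was measured by 2 of its 3 probe sets. The brighter by mean log2 signal, 1427868_x_at, had 842 on the labelled double-null array and 1875 in wild type, a log2 ratio of -1.16 (2.23-fold lower). The next, 1427520_a_at, had 912 on the labelled double-null array and 1628 in wild type, a log2 ratio of -0.84. Their ratios differed by 0.32, less than the 0.51 that is the SD between a gene's probe sets, but only the brighter passed 2-fold. The third, 1452465_at, was under the floor on both arrays, with 40.4 on the labelled double-null array and 196 in wild type. The suffix with x marks probes that can match other sequences and that with a probes shared by several transcripts, and without such probe sets Myh1 had no measured value. Whether they also read other chains of the family was not tested.

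Myh2 (IIa) had 433 on the labelled double-null array and 605 in wild type, above the floor on both arrays and under the measured level of 658, with a log2 ratio of -0.48 that is within the SD between probe sets. Myh4 (IIb) was under the floor throughout, by one probe set with 198 on the labelled double-null array and 156 in wild type and by the other with 77.2 on the labelled double-null array and 72.7 in wild type. Probe sets of the adult fast chains were thus above the floor for IIx and IIa and not for IIb. For IIx these were only probe sets whose suffix holds x or a, and whether they also read other chains was not tested. Over the 11 probe sets of the family, 5 were measured, 5 were under the floor on both arrays, and that of Myh2 lay in between.

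**Figure D1:**
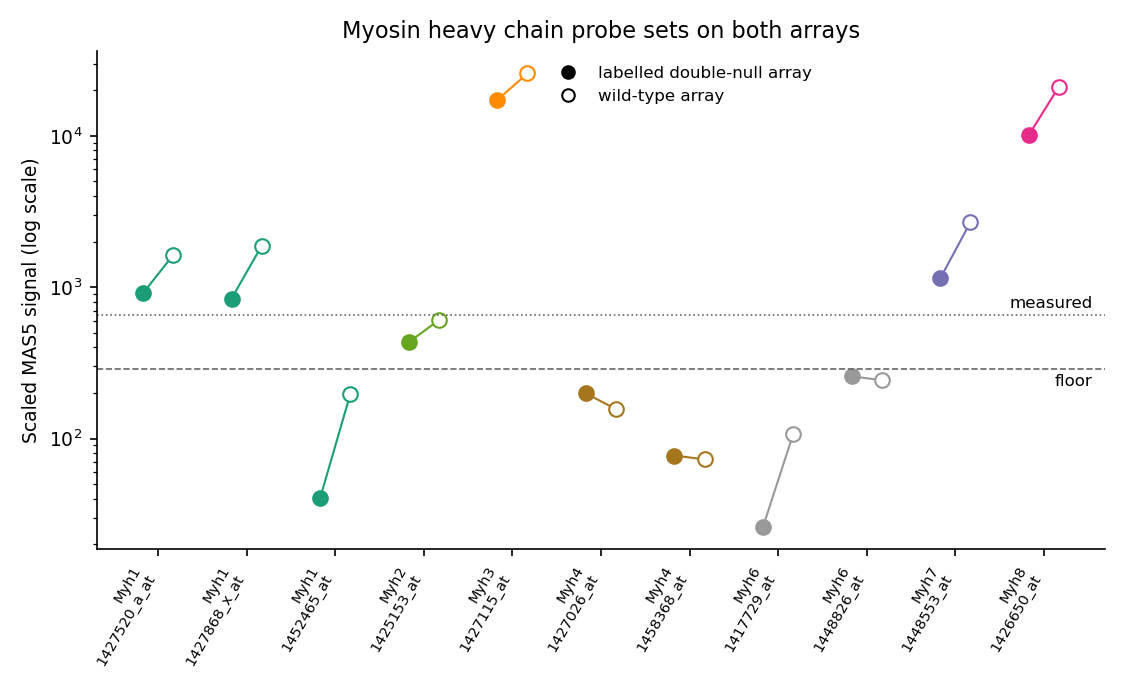
Scaled MAS5 signal on a log axis for each of the 11 probe sets of the 7 genes, with the labelled double-null array as filled points on the left and the wild-type array as open points on the right. The 5 measured probe sets of Myh1, Myh3, Myh7 and Myh8 are all lower on the labelled double-null array; the dashed line is the floor (287) and the dotted line the measured level (658).

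Signals of different probe sets depend on their probes, so the arrays give no share of each isoform. The ratios can be compared. Of the 4 measured members Myh3 was nearest to 0, and its log2 ratio exceeded that of Myh8 by 0.48, that of Myh1 by 0.57 and that of Myh7 by 0.65. The other 3 lay within 0.17 of each other. None of the 6 differences between members exceeded the SD of 0.73 for such a difference, so the ratio of the embryonic chain was not separable from the spread between probe sets. Most alternatives leave such a difference as it is by construction. Those that moved the 3 differences from Myh3 gave between 0.47 and 0.48 for Myh8 and between 0.48 and 0.50 for Myh7 (quantile normalization and the offset), and between 0.36 and 0.41 for Myh1 (these and the mean of probe sets). Along chromosome 11 the log2 ratios in gene order were -0.58 for Myh3, -0.48 for Myh2, -1.16 for Myh1 and -1.06 for Myh8, with no ratio for Myh4 between the last 2.

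**Figure D2:**
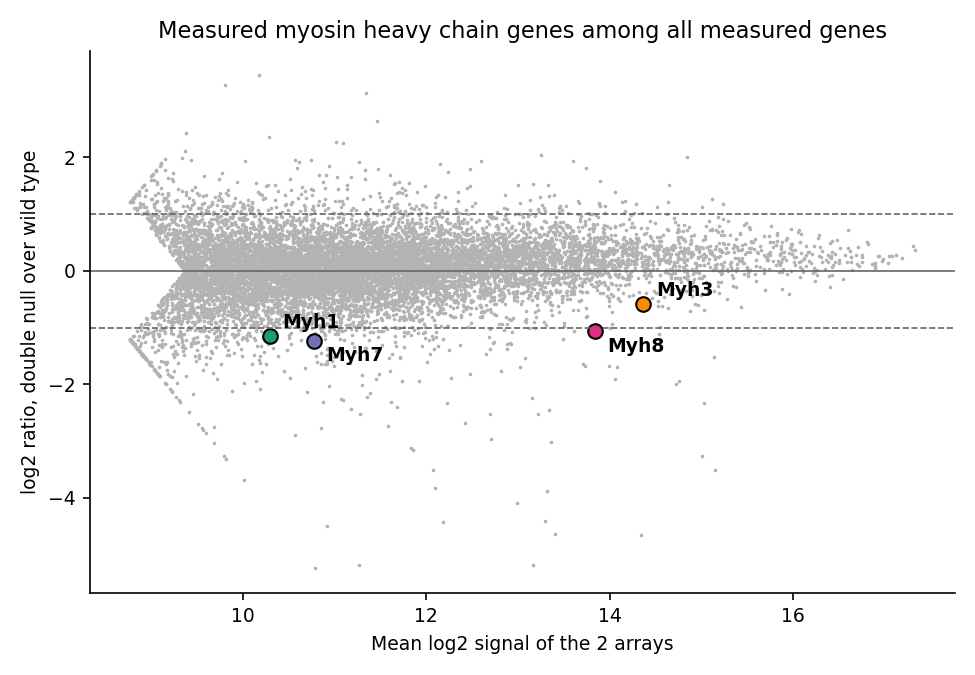
Log2 ratio of the labelled double-null array over wild type against the mean log2 signal of both arrays for the 11239 measured genes (grey), with the 4 measured myosin heavy chain genes in colour. Myh7 (-1.23), Myh1 (-1.16) and Myh8 (-1.06) lie below the dashed line at 2-fold lower and Myh3 (-0.58) above it.

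The genes nearest to 3 of the members by their pair of log2 signals on the 2 arrays were found by Euclidean distance. For Myh3 these were Dnajc8 (distance 0.04), Mylpf (0.08) and Hexa (0.14). Mylpf, the fast regulatory light chain that binds the myosin neck, had 16811 on the labelled double-null array and 24651 in wild type. For Myh7 they were Tnn (0.03), Svep1 (0.09) and Med8 (0.10), and for Myh8 Snhg5 (0.21), Dnajc7 (0.23) and Dmp1 (0.24). With 2 arrays this says only that probe-set signals and ratios were alike, not transcript levels.

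The light chains that sit on these heavy chains were also lower. All 5 measured sarcomeric light chains had log2 ratios below 0, with a median of -0.55, and none reached 2-fold. A gene that reached 658 in wild type alone had to be lower on the labelled double-null array to be counted here, which was so for Myl2 (581 on the labelled double-null array and 908 in wild type). Myl1, the fast essential light chain, had -0.93, Myl2, the slow regulatory chain, -0.64, Mylpf -0.55 and Myl4, the embryonic and atrial essential chain, -0.50. Myl3, the slow essential chain, was nearest to 0 with -0.10. Its other probe sets were short of the measured level and under the floor on the labelled double-null array, at least 1.62-fold and 1.45-fold lower. Partners of the thick filament had a median of -0.98, and 3 of their 6 measured genes passed 2-fold, all in the lower direction. Mybph, a myosin binding protein, had 124 on the labelled double-null array, under the floor, and 782 in wild type, at least 2.73-fold lower, and it too reached 658 in wild type alone. Over the 5 genes that reached it on both arrays, 2 were at least 2-fold lower. Mybpc1, slow myosin binding protein C, was 2.10-fold lower and Myom1, which links thick filaments at the M-band, 2.08-fold lower, but neither passed 2-fold with reference-gene signal scaling. The list's count at least 2-fold lower lay between 1 and 5 over the 13 alternatives of processing. Ttn, the spring that spans the sarcomere, had -0.53 by its brightest probe set, close to the ratio of Myh3. Its other measured probe sets were lower, with -1.06, -1.17 and -0.83.

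Fibre-type partners were lower on both the fast and the slow side. Of 9 measured fast fibre genes, all 9 were below 0 and 4 at least 2-fold lower, with a median log2 ratio of -0.93. Actn3, a fast alpha-actinin, was the 1 that reached 658 in wild type alone. Tnni2, fast troponin I, had -0.81 by its brightest probe set. Its other measured probe set, whose suffix holds x, had -0.003 (4820 on the labelled double-null array and 4830 in wild type). Tnnc2, fast troponin C, was 3.23-fold lower, Pgam2, muscle phosphoglycerate mutase, 3.02-fold, Tnnt3, fast troponin T, 2.46-fold and Casq1, the skeletal calsequestrin that stores calcium, 2.10-fold, while Mylpf was nearest to 0. Of 10 measured slow fibre genes, 8 were below 0 and 2 at least 2-fold lower, with a median of -0.73. Tnni1, slow troponin I, was 2.71-fold lower, and Tpm3, a tropomyosin that is also widely expressed, was furthest the other way at 0.05. That value is from the brightest probe set of Tpm3, and its measured probe sets ran from -1.65 to 0.82. Myl2 belongs to this list too. The fast Myh1 and the slow Myh7 thus had ratios of -1.16 and -1.23 beside fast and slow partners that were mostly lower. With reference-gene signal scaling the counts at least 2-fold lower were 2 of 9 fast and 1 of 10 slow genes.

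Among genes of fetal muscle, 7 of 8 measured genes were below 0 and 2 at least 2-fold lower, with a median log2 ratio of -0.48. Chrna1, a subunit of the acetylcholine receptor of the muscle membrane, had 168 on the labelled double-null array, under the floor, and 766 in wild type, at least 2.67-fold lower, and reached 658 in wild type alone. Tnnt2, the troponin T of heart and embryonic muscle, was 2.04-fold lower, the 1 such gene of 7 that reached it on both arrays, and did not pass 2-fold with reference-gene signal scaling. The list's count lay between 1 and 3 over the 13 alternatives. Ncam1, an adhesion molecule that nerve also expresses, had 0.23. These values ran from below that of Myh7 to above that of Myh3.

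**Figure D3:**
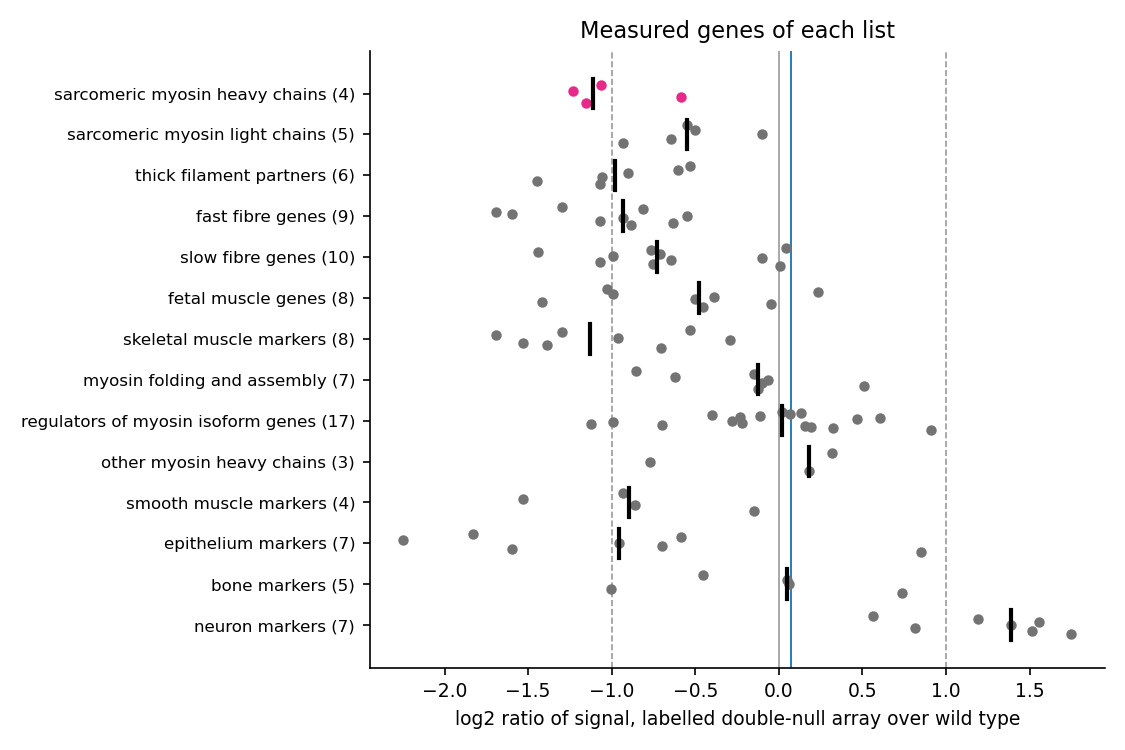
Log2 ratio of the labelled double-null array over wild type for each measured gene of 14 lists, with the number measured in brackets, the list's median as a black bar, 2-fold as dashed lines and the median of all measured genes (0.07) as a blue line. The myosin heavy chains (pink) have a median of -1.11 and the skeletal muscle markers one of -1.13. The epithelium markers (-0.95) and smooth muscle markers (-0.90) are also low, while the other myosin heavy chains and the regulators have medians near 0.

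Genes that fold myosin or regulate its isoforms had ratios on both sides of 0. Of 7 measured genes of myosin folding and assembly, none reached 2-fold, and the median log2 ratio of -0.12 turned to 0.19 with reference-gene signal scaling. Unc45b, the chaperone dedicated to striated muscle myosin, had -0.86 and Hsp90aa1, its widely expressed partner, 0.51. The measured probe sets of Hsp90aa1 ran from -0.24 to 0.72. Smyd1, a muscle protein that also takes part in thick filament assembly, had -0.10. That value is from a probe set whose suffix holds x, and none of the other Smyd1 probe sets was measured. Regulators of myosin isoform genes had a median of 0.02 over 17 measured genes, with a sign that changed in 3 of the 13 alternatives. Myf6, also called MRF4, was the 1 regulator at least 2-fold lower (446 on the labelled double-null array and 971 in wild type, 2.18-fold lower). It reached 658 in wild type alone, none of the 16 regulators that reached it on both arrays was at least 2-fold lower, and the count lay between 0 and 2 over the 13 alternatives, at 0 with reference-gene signal scaling. Myog, myogenin, had 934 on the labelled double-null array and 1856 in wild type, a log2 ratio of -0.99. Sox6, which represses slow fibre genes, had -0.11, and Eya1, a cofactor of fast fibre genes, 0.91. The measured probe sets of Sox6 ran from -0.47 to 0.22.

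Myosin heavy chains other than the members had ratios on both sides of 0. Of 3 measured genes none reached 2-fold, and their median log2 ratio was 0.18. Myh9 and Myh10, the non-muscle chains of the cell cortex, had 0.32 and 0.18, while Myh14 had -0.77. The probe sets of Myh9 ran from -0.66 to 0.65. Myh11, the smooth muscle chain, was not measured, with 485 on the labelled double-null array and 221, under the floor, in wild type. Myh7b, a slow-type chain, had 369 on the labelled double-null array and 552 in wild type and was not measured. Myhas, an antisense transcript of the fast cluster, also fell short of that level, with 434 on the labelled double-null array and 252, under the floor, in wild type. Its probe set and the brighter probe set of Myh1 are annotated to the same sequence record.

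Cell type markers moved with the myosin genes in several directions. Skeletal muscle markers had a median log2 ratio of -1.13, with 8 of 8 measured genes below 0 and 4 at least 2-fold lower, and a summed signal of 60133 on the labelled double-null array and 120038 in wild type. Neuron markers were higher in 7 of 7 measured genes, 5 of them at least 2-fold, with a summed signal of 110848 on the labelled double-null array and 46285 in wild type. Epithelium markers had a median log2 ratio of -0.95, with 6 of 7 genes below 0 and 3 at least 2-fold lower. Their summed signal was 79976 on the labelled double-null array and 114845 in wild type. Of 4 measured smooth muscle markers, all 4 were below 0 and Des, which skeletal muscle shares, was 2.89-fold lower, but Des and Actg2 reached 658 in wild type alone. The median of these markers was -0.90 and lay between -1.23 and -0.21 over the 13 alternatives. Without Des, 7 skeletal muscle markers were measured, 3 of them at least 2-fold lower. The median of endothelium markers was -0.37, and 2 of the 5 measured passed 2-fold in the lower direction. Tie1, an endothelial receptor, had 315 on the labelled double-null array and 1054 in wild type (3.35-fold lower), and Pecam1, an endothelial adhesion molecule, 109 on the labelled double-null array, under the floor, and 762 in wild type (at least 2.65-fold lower). Both reached 658 in wild type alone, and Emcn, at 0.51, on the labelled double-null array alone. Cartilage markers had a median of -0.40. Bone markers had a median of 0.05, whose sign changed in 3 of the 13 alternatives, and palatal mesenchyme markers one of -0.07, whose sign changed in 1, with Msx1 3.71-fold lower. The part of these tissue differences in the myosin ratios was not tested.

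**Figure D4:**
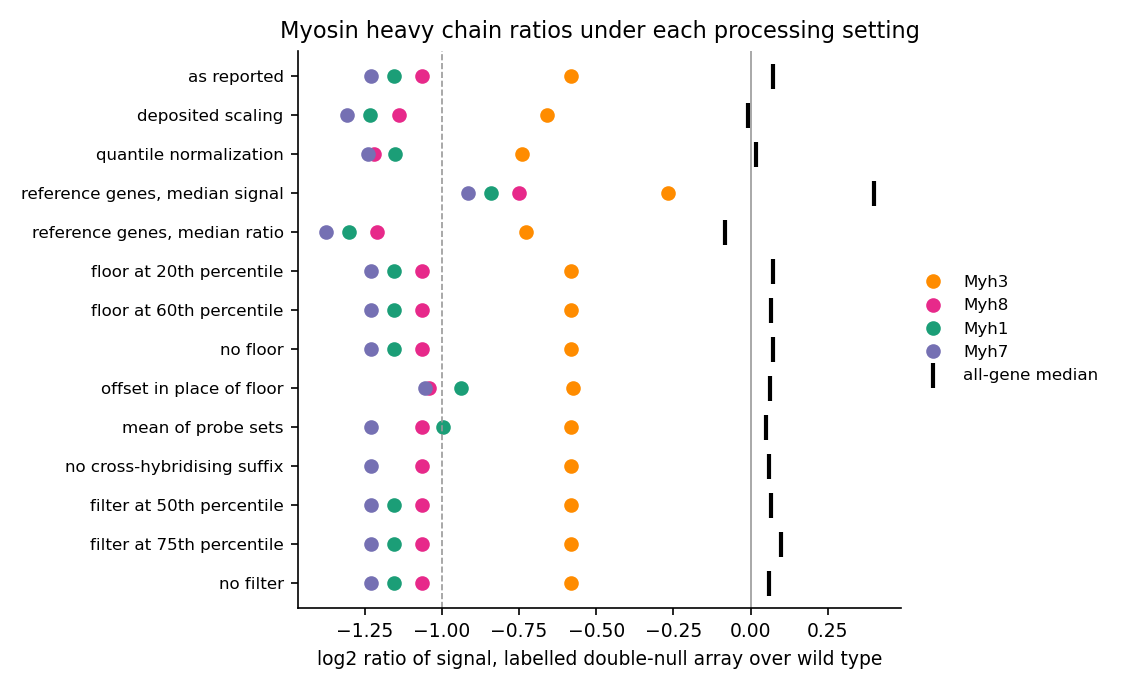
Log2 ratio of the labelled double-null array over wild type for Myh3, Myh8, Myh1 and Myh7 and, as black bars, the median of all measured genes, as reported and under 13 other settings. All 4 genes lie below 0 and Myh3 is nearest to it, an order that only quantile normalization, the offset and the mean of probe sets could have changed. Myh1 has no value without probe sets of a cross-hybridising suffix; the dashed line marks 2-fold lower.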

How the data were processed

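Total RNA of each palate sample (6 µg) was labelled as biotinylated cRNA and hybridised to 1 Affymetrix array, per the labels' protocols. The authors deposited linear signal intensities, 1 per probe set, made with MAS5 according to the labels' list of processing tools (version and detection calls not given in the sources used here). An array held 45101 probe sets, 64 of them controls, with a 2% trimmed mean of 1500.01 on both. MAS5 combines the probes of a set, so low signals are imprecise. The files name no genome build.

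Gene names came from the platform annotation: 34945 probe sets had 1 gene, 932 several and 9160 none listed, and all 7 members matched RefSeq. Arrays were brought to a common median over the probe sets in the brighter 50% of each array (factors 1.03 for double null and 0.974 for wild type). Signals under the 40th percentile (287) were raised to it as a floor before log2; with 1 array under it, a fold is written "at least". A gene's value is that of its brightest probe set by mean log2 signal, and counted as measured if either array was at or over the 60th percentile (658). Reference-gene scalings set the arrays to an equal median signal, or a median log2 ratio of 0, over 14 widely expressed genes. Members and lists were chosen with earlier results of these data known. Named genes were the members, Myf5, Myod1, up to 4 genes of a list past 2-fold, the 1 furthest the other way, and the 3 nearest in signal to Myh3, Myh7 and Myh8; others were named after their values were seen. The number of arrays limits the precision, and no p-value is given. Steps were tested on simulated data. That test checked only medians of groups of genes, with set changes larger than those of the members, so it gives no precision for a single gene. Python 3.11.15, numpy 2.4.6, pandas 2.3.3 and matplotlib 3.10.9 were used.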

Additional observations from a re-analysis of the deposited data

How the results depend on the processing

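No paired analysis was possible because each genotype has 1 array. The alternatives were 4 other scalings, 4 treatments of low signals, 2 gene rules, 3 filters and the 1.5-fold and 3-fold rules. Log2 ratios kept their sign in each alternative that gave a value, though most floors and filters could not move them: between -0.74 and -0.27 for Myh3, -1.22 and -0.75 for Myh8, -1.30 and -0.84 for Myh1, -1.38 and -0.92 for Myh7, and -1.26 and -0.80 for their median. Each lowest size came from reference-gene signal scaling. The 3 members at least 2-fold lower became 0 with that scaling and 0 under the 3-fold rule, and between 2 and 3 in the others. Of all genes, 474 were lower and 399 higher. These counts were 232 and 1154 with reference-gene signal scaling, and 237 were higher with scaling on reference-gene ratios. They were 264 and 262 with the floor at the 60th percentile, 264 and 198 with an offset in place of the floor, 243 and 242 with the filter at the 75th percentile, 1315 and 1490 under the 1.5-fold rule, and 131 and 56 under the 3-fold rule. The share of genes past 2-fold that were lower was 54.3%, against 65.0% with the deposited scaling, 16.7% with reference-gene signal scaling and 74.5% with scaling on reference-gene ratios. A median signal over 14 genes rests on those ranked in the middle. These included Eef2 (log2 ratio -1.52) on the labelled double-null array but not in wild type. No scaling without Eef2 was run, and the cause of the other shifts was not tested. Signals under the floor limit Myh4 and Myh6.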
